A study of Mus musculus with 3 samples.

Results

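The genes that build cholesterol and fatty acids were followed across the cell classes of 3 mouse pancreatic tumours. The 28 genes were taken by symbol from the 28692 genes of the count matrix, and all 28 had counts. They comprised 6 genes of the mevalonate steps, 11 of the squalene and sterol steps, 3 regulators, 1 efflux gene and 7 genes of fatty acid synthesis. The tumours came from 3 samples of the strain KPf/fC, which formed 1 group with no treated or control arm. KPC mice are a genetic model of pancreatic cancer in which a Cre recombinase acts in the pancreas. The labels name neither the Cre driver nor the age of the animals, nor how many animals lie behind each tumour. Cells had been sorted as CD45-, CD31- and PDGFRa-, so immune cells, endothelial cells and part of the fibroblasts were selected against before sequencing. Comparisons were therefore made between cell classes within tumours, and the tumour was the replicate. Nothing in the labels says that the tumours came from separate animals, so p-values weigh class differences against how they vary over these 3 samples only. Shifts shared by all classes of a tumour were taken out by fitting the tumour as a block.

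Cells make cholesterol from acetyl-CoA through mevalonate, farnesyl diphosphate, squalene and lanosterol, and most enzymes of this route are switched on together by the transcription factor SREBP2 when membrane cholesterol is low. SREBP1 drives the fatty acid branch, in which citrate is split to acetyl-CoA, extended to palmitate and then desaturated or elongated. Cells can instead take up lipoproteins and fatty acids, and they export cholesterol through ABC transporters that are switched on by liver X receptors.

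A class was formed by the cells with at least 1 UMI (a unique molecular identifier, here 1 captured RNA molecule) of both of its markers and of no other pair. The epithelial pair was Epcam and Cdh1, the fibroblast pair Dcn and Col3a1, the mural pair Rgs5 and Higd1b, the mesothelial pair Upk3b and Lrrn4, and the endothelial pair Pecam1 and Cdh5. In tumours 1, 2 and 3, epithelial cells numbered 1909, 1482 and 2973, fibroblasts 1825, 1889 and 2183, and mural cells 193, 128 and 253. Endothelial cells numbered 186, 15 and 57, and the sum of tumour 2, under 20 cells, entered no test. Nearly all cells with the mesothelial pair also met the fibroblast pair, so after the data had been seen this class was set to cells with the mesothelial pair and no epithelial, mural or endothelial pair, which gave 226, 72 and 61 cells. Levels are given as CPM, the UMIs of a gene per 1000000 UMIs of the class in that tumour.

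The summed level of 5 epithelial markers was 7112 to 8837 CPM in epithelial cells against 424 to 1309 in fibroblasts, and 5 endothelial markers reached 2185 to 2923 CPM in endothelial cells against at most 199.8 elsewhere among the classes. The mesenchymal classes overlapped: mural cells had 2057, 1642 and 1904 CPM of mural markers beside 1951, 3083 and 2452 of fibroblast markers in tumours 1, 2 and 3. Mesothelial cells had 2884, 2431 and 3886 CPM of mesothelial markers beside 2844, 2740 and 1649 of epithelial and 2632, 2151 and 1977 of fibroblast markers. The fibroblast class of tumour 2 stood apart, with 3806 CPM over 5 fibroblast markers against 10588 and 11145 in tumours 1 and 3. Of its cells, 61.5% had a UMI of Lum, Dpt or Pdgfra against 80.3% and 86.6%. Whether the fibroblast class also held other mesenchymal cells was not tested. The epithelial tight-junction gene Cldn7 was seen in fibroblasts at 4.70%, 2.25% and 3.82% of its epithelial level in tumours 1, 2 and 3. The 5 epithelial markers summed to a larger share, at 1309, 842 and 424 CPM in fibroblasts against 8837, 7795 and 7112 in epithelial cells. The part of free RNA or mixed droplets in these values was not tested. Acinar markers, which mark the enzyme-secreting cells of the pancreas, summed to 1703, 62.4 and 2440 CPM in epithelial cells and 700.5, 113 and 515 in fibroblasts of tumours 1, 2 and 3. Immune markers summed to at most 18.4 CPM in any class. Adipocyte markers reached 149.0 CPM in the mural cells and 46.8 in the fibroblasts of tumour 3, and haemoglobin genes dominated an erythroid sum of 7500 CPM in the endothelial cells of tumour 3 against 0.930 in tumour 1. The pairs of tumours shared 50, 65 and 57 barcode sequences out of 5874 to 7615 barcodes each.

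Epithelial cells held the highest summed level of the 17 sterol synthesis genes in every tumour. The sum was 695, 568 and 573 CPM in epithelial cells of tumours 1, 2 and 3, against 429, 416 and 228 in fibroblasts, 333, 306 and 148.0 in mural cells and 321, 299.6 and 212 in mesothelial cells. The epithelial and the other sums did not overlap, and the epithelial level was 1.62, 1.37 and 2.52 times that of fibroblasts in the same tumours. Endothelial cells had 365 and 175 CPM in tumours 1 and 3, and 482 in the 15 cells of tumour 2. The 7 fatty acid synthesis genes did not follow this order: their sum was 282, 226 and 227 CPM in epithelial cells and 341, 258 and 244 in fibroblasts, higher in the fibroblasts of each tumour. Tumour 3 had the lowest sterol sum of the 3 in fibroblasts, mural, mesothelial and endothelial cells, while its epithelial sum of 573 CPM lay beside the 568 of tumour 2. In fibroblasts of tumour 3 the median depth was also lowest, with 4953 UMIs per cell against 7322 and 8952 in tumours 1 and 2, and its part in the low sterol sum was not tested.

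**Figure D1:**
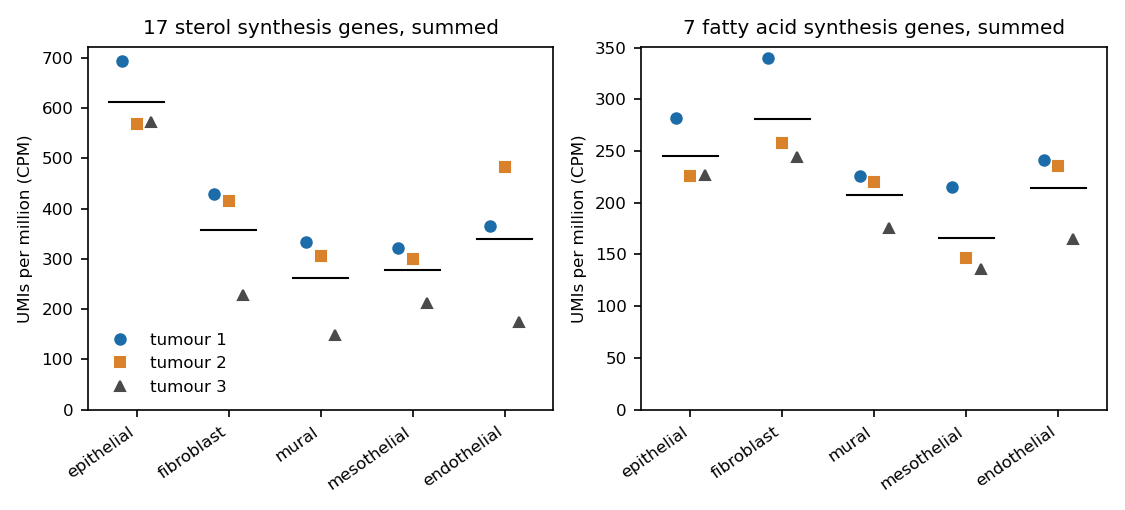
Summed level (y axis, CPM) of the 17 sterol synthesis genes (left) and the 7 fatty acid synthesis genes (right) in 5 cell classes (x axis). Each point is 1 tumour and the bar is the mean of the 3; the epithelial sterol sums of 568 to 695 CPM lie above those of the other classes, and the endothelial point of tumour 2 rests on 15 cells.

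Against fibroblasts, 17 of the 28 genes were higher in epithelial cells and 1 was lower (edgeR quasi-likelihood test, Benjamini-Hochberg adjusted p under 0.05). Over all 14807 genes tested, 19.7% were called higher and 20.2% lower, so calls were common in this comparison, and the median log2 fold change was 0.87 for the 28 genes and 0.06 for all genes. Of the 6 mevalonate genes 4 were higher, of the 11 squalene and sterol genes 8, of the 3 regulators 2 and of the 7 fatty acid genes 3. No sterol synthesis gene was lower. Without the tumour as a block 5 genes were higher and 1 lower, and without tumour 1 the counts were 10 and 1, without tumour 3 11 and 1.

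Early in the route, Idi1, which isomerises isopentenyl diphosphate, and Fdps, which makes farnesyl diphosphate, were both higher in epithelial cells. Fdps stood at 141, 98.7 and 129 CPM in epithelial cells of tumours 1, 2 and 3 and at 70.9, 75.6 and 22.0 CPM in fibroblasts. Its groups did not overlap, and the log2 difference was 1.41 ± 0.35 (SE, n = 3 tumours, edgeR adjusted p = 0.00607). Tumour 3 carried the largest of the 3 differences and tumour 2 the smallest, at 2.57 and 0.44 on the log2 scale. Idi1 stood at 30.4, 26.9 and 21.2 CPM against 15.2, 18.7 and 4.95, a log2 difference of 1.22 ± 0.28 (SE, edgeR adjusted p = 0.0034). Hmgcs1, the enzyme that makes HMG-CoA, and Mvd, the last decarboxylation before isopentenyl diphosphate, were also higher, by 0.91 and 0.89 on the log2 scale. Mvk and Pmvk, the 2 kinases of the route, were not called, with log2 differences of 0.15 ± 0.30 and 0.25 ± 0.24 (SE).

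The promoter sequences below are shown because Hmgcs1 was the only matched gene with the sterol-response-type motif, Mvd and Srebf2 were called higher in epithelial cells with it and carry CCAAT boxes, and Abca1 is the efflux gene among the 28. They are bases upstream of annotated starts in RefSeq on GRCm38.p6, written 5′ to 3′ on the strand of the gene, and each stops before any annotated exon. Capitals mark matches on either strand to the sterol-response-type motif TCACNCCAC, to the CCAAT box or to the E-box CACGTG. The coordinates are chr13:119690101-119690350 on the plus strand for Hmgcs1, chr8:122443423-122443672 on the minus strand for Mvd, chr15:82147019-82147180 on the plus strand for Srebf2 and chr4:53159896-53160145 on the minus strand for Abca1.
Hmgcs1: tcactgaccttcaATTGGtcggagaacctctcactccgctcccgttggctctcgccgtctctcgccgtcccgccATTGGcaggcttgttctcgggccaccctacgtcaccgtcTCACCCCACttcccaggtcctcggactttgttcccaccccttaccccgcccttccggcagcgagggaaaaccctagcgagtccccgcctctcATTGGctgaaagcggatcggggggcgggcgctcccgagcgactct
Mvd: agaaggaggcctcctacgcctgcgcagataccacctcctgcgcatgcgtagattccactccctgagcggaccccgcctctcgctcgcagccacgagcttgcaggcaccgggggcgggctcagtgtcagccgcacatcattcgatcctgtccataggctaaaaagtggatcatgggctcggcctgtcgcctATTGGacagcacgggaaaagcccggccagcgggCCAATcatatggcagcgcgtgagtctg
Srebf2: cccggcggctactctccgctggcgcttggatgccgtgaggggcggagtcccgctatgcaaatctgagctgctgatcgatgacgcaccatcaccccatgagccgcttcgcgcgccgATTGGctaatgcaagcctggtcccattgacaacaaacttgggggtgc
Abca1: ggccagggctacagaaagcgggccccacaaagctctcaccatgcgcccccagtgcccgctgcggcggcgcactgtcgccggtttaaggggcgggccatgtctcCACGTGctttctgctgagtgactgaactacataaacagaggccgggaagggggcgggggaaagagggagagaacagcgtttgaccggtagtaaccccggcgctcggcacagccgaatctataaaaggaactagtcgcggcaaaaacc
Of the 28 genes, 23 matched the promoter table with 28 start sites. Fdps, Fdft1, Sqle, Scd1 and Scd2 did not match and were not searched for motifs. Dhcr7, Srebf1 and Pmvk had more than 1 site each. In the 250 bases before the start, TCACNCCAC matched 1 of the 28 sites, or 3.57%, against 1.05% of all 32851 promoters. CCAAT matched 20 sites, or 71.4%, against 33.8% of all promoters, and GGGCGG, the GC box, matched 21, or 75.0%, against 32.7%. CACGTG, the E-box that SREBP and other basic helix-loop-helix factors can bind, matched 5 sites, or 17.9%, against 6.02% of all promoters, those of Hsd17b7, Sc5d, Dhcr7, Insig1 and Abca1. Each motif was searched on both strands, and none of the 4 is contained in another. These matches describe letters in a window and show no binding.

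Of the squalene and sterol enzymes, Tm7sf2, a sterol C14 reductase, stood at 11.7, 9.46 and 9.80 CPM in epithelial cells and 2.88, 1.75 and 1.90 in fibroblasts. All 3 tumours showed a difference of similar size, and the log2 difference was 2.30 ± 0.35 (SE, n = 3, edgeR adjusted p = 0.000171). Msmo1, a C4-methyl sterol oxidase, stood at 102, 81.2 and 83.2 CPM against 37.7, 44.4 and 16.1, with no overlap, and differed by 1.61 ± 0.30 (SE, edgeR adjusted p = 0.000889). Lss, which closes squalene epoxide to lanosterol, was at 6.84, 6.88 and 8.62 CPM against 3.20, 3.83 and 1.40, a difference of 1.55 ± 0.45 (SE, edgeR adjusted p = 0.0145). Fdft1, squalene synthase, differed by 1.41 ± 0.27 (SE, edgeR adjusted p = 0.00117). Sqle, Nsdhl, Sc5d and Dhcr7, which epoxidise squalene and carry out later steps, were higher by 0.85 to 1.20 on the log2 scale. Cyp51, the lanosterol demethylase, did not share this pattern: it stood at 37.6, 27.2 and 27.2 CPM in epithelial cells and 47.2, 31.0 and 43.4 in fibroblasts, and the log2 difference of -0.36 ± 0.27 (SE) was not called (edgeR adjusted p = 0.322). Hsd17b7 and Ebp, at 0.52 ± 0.27 and 0.36 ± 0.18, were not called either.

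Epithelial cells had median depths of 10613, 8958.5 and 7729 UMIs. Seen per cell, a Fdps UMI was found in 51.5%, 44.1% and 46.5% of epithelial cells and in 27.2%, 37.0% and 9.16% of fibroblasts. After each cell had been thinned to 3000 UMIs, which kept 2882 of 2973 epithelial cells and 1850 of 2183 fibroblasts in tumour 3, the shares were 25.9%, 19.1% and 25.9% against 13.2%, 15.4% and 5.24%. A Cldn7 UMI, which fibroblasts should lack, was found in 3.56%, 2.33% and 3.03% of thinned fibroblasts, so the Fdps share there lay above that of Cldn7 in each tumour. Cldn7 is only 1 of the epithelial markers, and the summed markers held a larger share in fibroblasts. A thinned epithelial cell held UMIs of 1.56, 1.37 and 1.40 of the 17 sterol genes on average in tumours 1, 2 and 3, and a thinned fibroblast 1.01, 0.976 and 0.622.

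**Figure D2:**
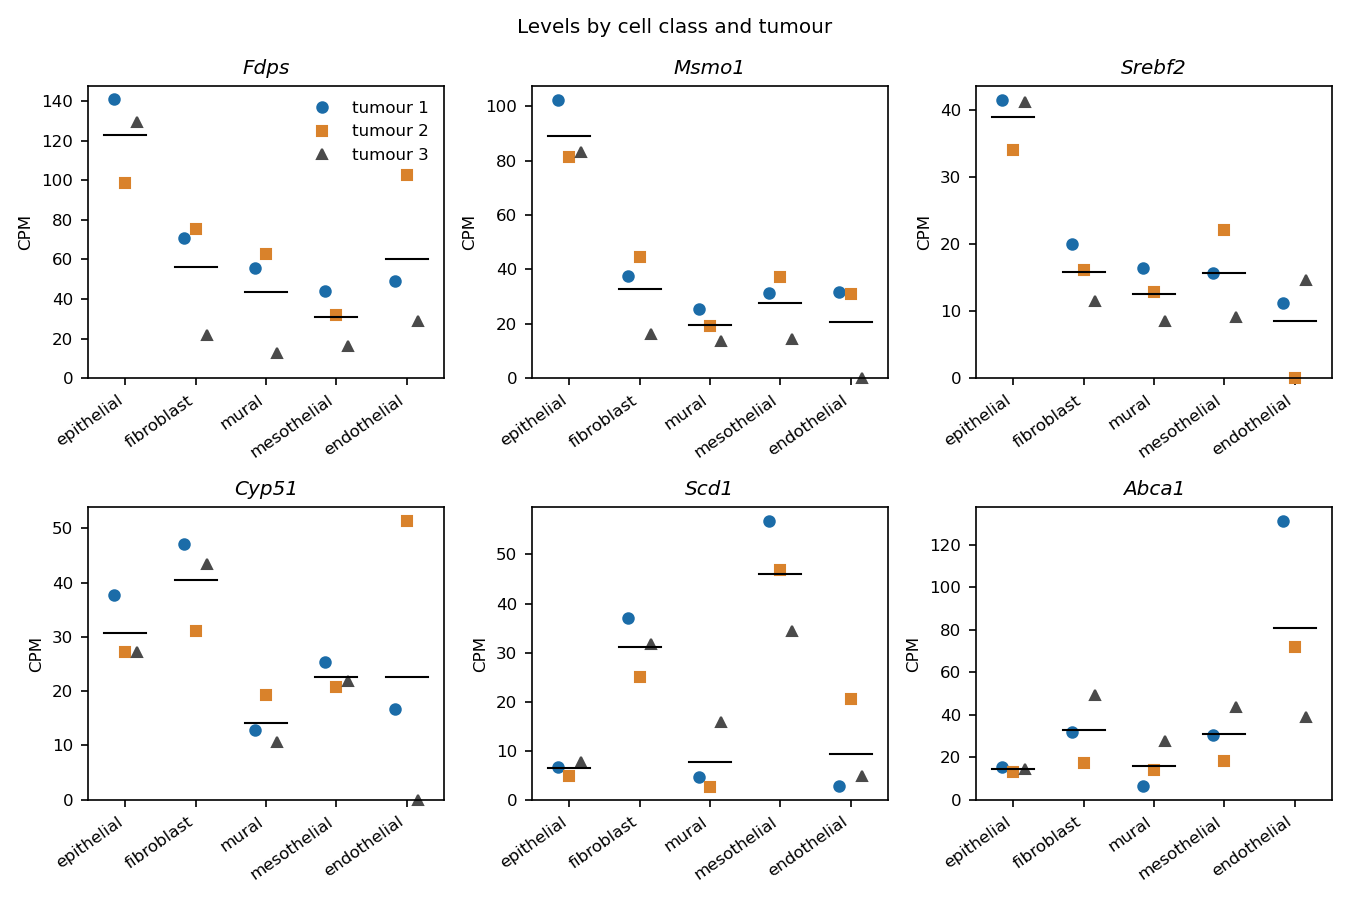
Levels (y axes, CPM) of Fdps, Msmo1, Srebf2, Cyp51, Scd1 and Abca1 in 5 cell classes (x axes). Points are tumours and bars their means; Fdps, Msmo1 and Srebf2 are highest in the epithelial cells except for the endothelial Fdps point of tumour 2 (15 cells), Scd1 in mesothelial cells and fibroblasts, and Abca1 in endothelial cells of tumours 1 and 2.

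Both sterol regulatory element-binding protein genes were higher in epithelial cells than in fibroblasts. Srebf2 stood at 41.5, 33.9 and 41.1 CPM against 19.98, 16.1 and 11.5, with no overlap, and differed by 1.37 ± 0.21 (SE, edgeR adjusted p = 0.00023). Srebf1 stood at 38.3, 29.0 and 40.0 CPM against 20.6, 15.9 and 14.4, a log2 difference of 1.12. Insig1, whose protein holds SREBP in the endoplasmic reticulum, stood at 21.1, 19.4 and 51.1 CPM in epithelial cells and 24.2, 16.6 and 19.2 in fibroblasts; the groups overlapped and it was not called (edgeR adjusted p = 0.147). Tumour 3 had the highest epithelial Insig1 level.

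The fatty acid genes split. Scd1, a stearoyl-CoA desaturase, stood at 6.54, 4.83 and 7.75 CPM in epithelial cells and 36.9, 24.9 and 31.7 in fibroblasts. The groups did not overlap, and epithelial cells were lower by a log2 difference of -2.27 ± 0.29 (SE, n = 3, edgeR adjusted p = 3.98e-05). Its paralogue Scd2 stood at 159, 115 and 124 CPM against 134, 126 and 129 and was not called, with a log2 difference of 0.07 ± 0.19 (SE). How the counting treated reads that match both paralogues is not stated, and its effect was not tested. Fasn, the fatty acid synthase, Elovl6, an elongase, and Acss2, which makes acetyl-CoA from acetate, were higher in epithelial cells by 0.72, 0.79 and 1.16 on the log2 scale. Acly, which splits citrate, stood at 56.4, 58.4 and 57.0 CPM in epithelial cells and at 129, 68.0 and 52.8 in fibroblasts. Fibroblast levels of Acly thus varied more between tumours than the epithelial ones, and it was not called (edgeR adjusted p = 0.181), nor was Acaca, the acetyl-CoA carboxylase (edgeR adjusted p = 0.0894). Scd1 UMIs were in 6.60%, 4.59% and 5.95% of epithelial cells and 20.3%, 21.9% and 13.9% of fibroblasts, and in 2.25%, 1.28% and 2.36% against 9.15%, 7.36% and 9.14% after thinning.

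Against mural cells, the pericytes and smooth muscle of vessels, 18 genes were higher in epithelial cells and none was lower. Among all 14807 genes 20.3% were higher and 15.1% lower, and the median log2 fold change was 1.22 for the 28 genes and 0.19 for all. Of the 17 sterol genes 14 were higher, including 10 of the 11 squalene and sterol genes. Sc5d, the C5 desaturase, stood at 22.9, 26.9 and 28.1 CPM against 4.56, 3.84 and 2.11, from 10 mural UMIs in all, and differed by 3.06 ± 0.40 (SE, edgeR adjusted p = 6.93e-05). Dhcr7, which makes cholesterol from 7-dehydrocholesterol, differed by 2.41 ± 0.43 (SE, edgeR adjusted p = 0.000785) on 8 mural UMIs. Msmo1 differed by 2.41 ± 0.37, Sqle by 2.22 ± 0.37, Fdft1 by 2.20 ± 0.36, Fdps by 1.88 ± 0.40 and Srebf2 by 1.81 ± 0.28 (SE, n = 3 tumours each). Tm7sf2 differed by 2.46 ± 0.56 (SE) with 6 mural UMIs. Among fatty acid genes Fasn and Scd2 were higher, at 0.96 ± 0.26 and 1.21 ± 0.22 (SE), and Scd1 was not called, with a log2 difference of -0.07 ± 0.41. No block left 12 genes higher.

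Mural cells and fibroblasts could be set side by side as 2 mesenchymal classes. In this comparison 1 of the 28 genes was higher in mural cells and 5 were lower, while 5.96% of all genes were higher and 8.47% lower. Cyp51 stood at 12.8, 19.2 and 10.6 CPM in mural cells against 47.2, 31.0 and 43.4 in fibroblasts, and was lower by a log2 difference of -1.65 ± 0.36 (SE, edgeR adjusted p = 0.0073). Sc5d and Dhcr7 were lower as well, at -1.86 ± 0.42 and -1.56 ± 0.45 (SE). Both desaturases were lower: Scd1 at 4.56, 2.56 and 15.9 CPM against 36.9, 24.9 and 31.7, a log2 difference of -2.20 ± 0.38 (SE, edgeR adjusted p = 0.00184), and Scd2 at -1.14 ± 0.21 (SE, edgeR adjusted p = 0.00309). The mural Scd1 value of tumour 3, the highest of the 3, came with the adipocyte marker sum of 149.0 CPM, against 2.73 and 0 in tumours 1 and 2, and the part of such cells was not tested. Elovl6 was higher in mural cells, at 16.4, 23.1 and 17.97 CPM against 7.04, 9.79 and 4.21, with a log2 difference of 1.39 ± 0.30 (SE, edgeR adjusted p = 0.00688). Without tumour 1 no gene was called lower, without tumour 2 3 were, and without tumour 3 Elovl6 was not called. With no block 3 genes were lower and 0 higher, and with DESeq2 4 and 1.

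Mesothelial cells, the lining of the abdominal cavity, had less Tm7sf2 and more Scd1 than epithelial cells. Fibroblasts shared both traits, with mean Tm7sf2 of 2.18 CPM against 1.95 in mesothelial cells and mean Scd1 of 31.2 against 46.1. Of the 27 genes tested against mesothelial cells, 12 were higher in epithelial cells and 1 was lower. Among all 11614 genes tested, 18.6% were higher and 20.8% lower, and Acss2 did not pass the filter on low counts. Fdps stood at 44.2, 31.8 and 16.3 CPM in mesothelial cells, and epithelial cells were higher by 1.99 ± 0.39 (SE, edgeR adjusted p = 0.00106). Fasn, at 10.5, 6.90 and 5.44 CPM in mesothelial cells, differed by 1.43 ± 0.25 (SE, edgeR adjusted p = 0.000435). Msmo1, Sqle, Srebf1 and Fdft1 were higher by 1.66, 1.55, 1.34 and 1.32, and Tm7sf2, with 5 mesothelial UMIs, by 2.75 ± 0.61 (SE). Scd1 went the other way, at 56.9, 46.9 and 34.5 CPM in mesothelial cells, a log2 difference of -3.05 ± 0.32 (SE, edgeR adjusted p = 4.38e-06). Epithelial Scd1 lay far below in every tumour. Without tumour 1, 5 genes were called higher, and with no block 7.

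Between mesothelial cells and fibroblasts no sterol synthesis gene was called; 3 fatty acid genes were lower in mesothelial cells and none was higher, against 8.11% and 8.64% of all genes. Scd2 stood at 77.1, 49.7 and 43.5 CPM in mesothelial cells against 134, 126 and 129 in fibroblasts, with no overlap and a log2 difference of -1.10 ± 0.22 (SE, edgeR adjusted p = 0.00274). Acly, at -1.01 ± 0.25 (SE, edgeR adjusted p = 0.0123), and Fasn, at -0.82 ± 0.26 (SE, edgeR adjusted p = 0.0428), were lower too. Each time a tumour was left out 1 gene was called lower: Scd2 without tumour 1 or 2, and Acly without tumour 3. Scd1, at 0.70 ± 0.30 (SE), was not called (edgeR adjusted p = 0.139), and was called higher without tumour 3. Some errors were large beside the difference: Fdps, not called, differed by -0.69 ± 0.39 (SE).

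**Figure D3:**
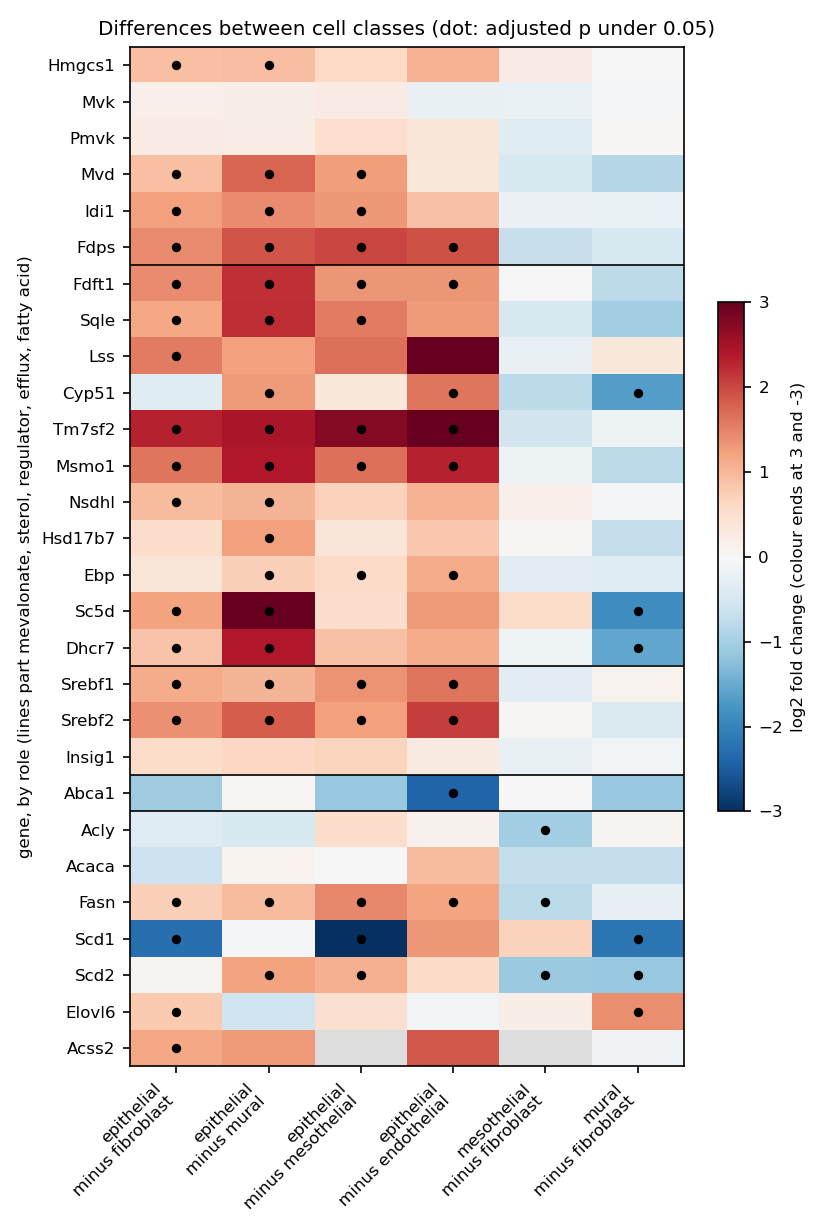
Log2 fold changes (colour) of the 28 genes (y axis, by role) in 6 comparisons of cell classes (x axis); a black dot marks an adjusted p under 0.05 and grey a gene not tested. The upper 17 rows are mostly red in the 4 epithelial comparisons and Scd1 is blue against fibroblasts and mesothelial cells; colours for Lss and Tm7sf2 against endothelial cells rest on 1 endothelial UMI each.

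Endothelial cells that had escaped the CD31 sort were compared in tumours 1 and 3. Of the 28 genes 9 were higher in epithelial cells and 1 was lower, against 13% higher and 10% lower of all genes. Srebf2 stood at 11.2 and 14.6 CPM in endothelial cells of tumours 1 and 3 and was higher in epithelial cells by 2.06 ± 0.39 (SE, n = 2 tumours, edgeR adjusted p = 0.00191). Msmo1, at 31.6 and 0 CPM, Fdps, at 49.3 and 29.1, Srebf1, at 16.7 and 9.70, Cyp51, at 16.7 and 0, and Fdft1, at 23.3 and 19.4, were also called higher in epithelial cells, by 2.31, 1.91, 1.60, 1.60 and 1.33 on the log2 scale. In the 15 endothelial cells of tumour 2, which were left out of the test, Cyp51 stood at 51.3 CPM and Fdps at 103, against 27.2 and 98.7 in epithelial cells of that tumour. Fdft1 was not called with DESeq2, which left 8 genes higher, and neither Fdft1 nor Cyp51 was called after thinning to 3000 UMIs per cell, which left 7. Tm7sf2 and Lss had 1 endothelial UMI each, so no fold is given for them. Without tumour 1, which leaves 1 endothelial sum, 1 gene was called higher and 0 lower, and without tumour 3 the counts were 5 and 1; with no block they were 4 and 1.

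Abca1, which moves cholesterol out of the cell onto apolipoprotein acceptors, stood at 131 and 38.8 CPM in endothelial cells of tumours 1 and 3, and at 71.8 in the 15 cells of tumour 2. Epithelial cells had 15.5, 13.2 and 14.3 CPM, fibroblasts 31.9, 17.4 and 49.3, mesothelial cells 30.3, 17.9 and 43.5, and mural cells 6.38, 14.1 and 27.5. The endothelial level was the highest of the 5 classes in tumours 1 and 2, and lay below those of fibroblasts and mesothelial cells in tumour 3, where it rests on 8 UMIs. The epithelial level was lower than the endothelial one by a log2 difference of -2.39 ± 0.52 (SE, n = 2, edgeR adjusted p = 0.00534). Against fibroblasts the difference was -1.06 ± 0.40 (SE) and just missed the threshold (edgeR adjusted p = 0.0534), with epithelial cells lower in 3 of 3 tumours. Abca1 was not called against mesothelial cells either, at -1.14 ± 0.44 (SE, edgeR adjusted p = 0.053), or against mural cells, at 0.07 ± 0.52 (SE, edgeR adjusted p = 0.939), where epithelial cells were higher in 2 of 3 tumours. When the fibroblast class was limited to cells with a UMI of Lum, Dpt or Pdgfra, a choice made after seeing the data, Abca1 was called lower too and the same 17 genes were called higher. It was also called lower without tumour 2.

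A further 42 genes of lipid handling were listed apart from the 28. Of these, 13 were higher and 9 lower in epithelial cells than in fibroblasts, 14 and 11 against mural cells, 12 and 6 against endothelial cells, and, of 40 tested, 12 and 8 against mesothelial cells. The shares of all genes tested that were higher and lower were 19.7% and 20.2% against fibroblasts, 20.3% and 15.1% against mural cells, 13% and 10% against endothelial cells, and 18.6% and 20.8% against mesothelial cells. Uptake genes were divided. Lrp1, an endocytic receptor for remnant lipoproteins and many other ligands, stood at 20.3, 25.6 and 32.0 CPM in epithelial cells and 351, 182 and 568 in fibroblasts, a log2 difference of -3.67 ± 0.30 (SE, edgeR adjusted p = 1.18e-06). Lpl, the lipase that frees fatty acids from lipoproteins, stood at 4.08, 3.97 and 9.36 CPM against 267, 121 and 202, a difference of -5.09 ± 0.30 (SE, edgeR adjusted p = 9.71e-08). Npc1, which exports cholesterol from lysosomes, was higher in epithelial cells by 0.95 on the log2 scale, and Npc2, its lysosomal partner, was lower, at -0.71.

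Scarb1, the receptor for high-density lipoprotein, was an endothelial gene here, at 209 CPM in tumours 1 and 3 against 12.9 and 14.1 in epithelial cells, a log2 difference of -3.72 ± 0.28 (SE, n = 2, edgeR adjusted p = 1.52e-06). Cd36, a fatty acid transporter of capillaries, stood at 151 and 14.6 CPM in endothelial cells and 22.8, 19.2 and 10.6 in mural cells, with 20 UMIs in all epithelial cells. Fabp4, a fatty acid-binding protein, stood at 4151 and 1053 CPM in endothelial cells of tumours 1 and 3, 1129.9, 1051 and 1661 in mural cells, and 11.7, 2.45 and 5.31 in epithelial cells. Mural cells exceeded fibroblasts by 4.33 ± 0.69 for Fabp4, 4.17 ± 0.63 for Cd36 and 2.41 ± 0.53 for Fabp5 (SE, n = 3), so 3 of the 6 fatty acid uptake and binding genes were higher in mural cells and none was lower, against 5.96% higher and 8.47% lower of all genes. Fabp4 is also an adipocyte gene, and the adipocyte markers Adipoq and Plin1 were at 0 in mural cells of tumours 1 and 2 but not of tumour 3, where Fabp4 was highest; the part of such cells was not tested.

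The 4 genes listed as other efflux were Abcg1, Abca3, Abca7 and Mylip, of which Mylip acts on lipoprotein receptors and is not an exporter. Of the 4, 1 was higher and 1 lower in epithelial cells than in fibroblasts, and 1 and 1 against mural cells. Against mesothelial cells the counts were 2 and 1, and against endothelial cells 0 and 2. The only gene lower against fibroblasts, mural cells and mesothelial cells was Mylip. Abca3, a lipid transporter, was higher in epithelial cells than in fibroblasts by 1.95 ± 0.22, than in mural cells by 3.27 ± 0.36 and than in mesothelial cells by 1.06 ± 0.25 (SE, n = 3). Abcg1, the efflux partner of Abca1, was lower in epithelial than in endothelial cells, at -2.32 ± 0.49 (SE, edgeR adjusted p = 0.0041), as was Mylip, which marks lipoprotein receptors for degradation, at -2.64 ± 0.39. Abcg1 was called higher in epithelial than in mesothelial cells, which had 2 UMIs of it, so no fold is given. Mylip was lower in epithelial cells than in fibroblasts, mural cells and mesothelial cells too, at -0.91 ± 0.30, -1.66 ± 0.35 and -1.43 ± 0.37 (SE, n = 3).

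**Figure D4:**
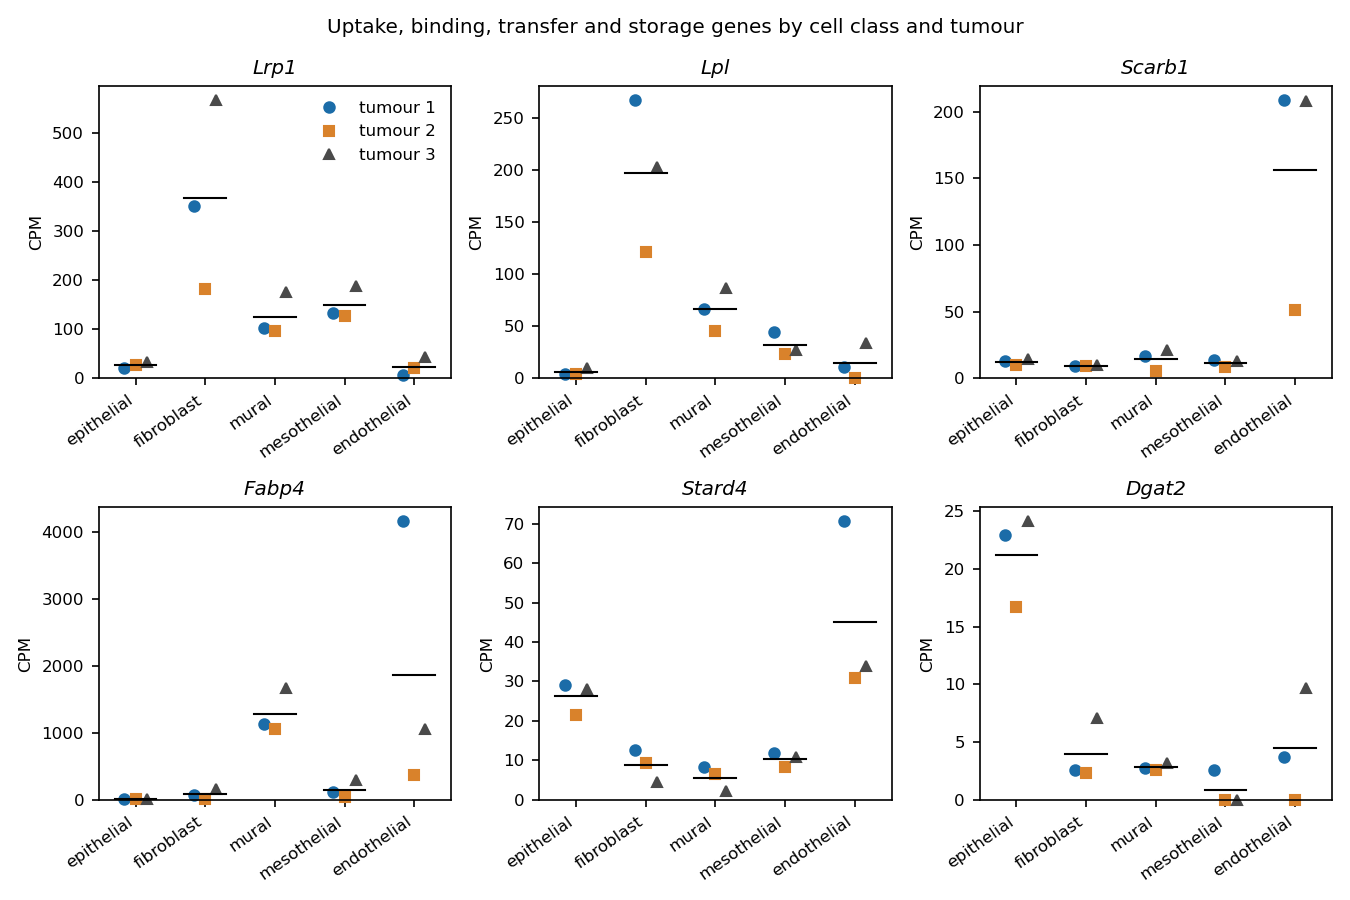
Levels (y axes, CPM) of Lrp1, Lpl, Scarb1, Fabp4, Stard4 and Dgat2 in 5 cell classes (x axes), 1 point per tumour with the mean as a bar. Lrp1 and Lpl are highest in fibroblasts, Scarb1 in endothelial cells, Fabp4 in mural and endothelial cells and Dgat2 in epithelial cells.

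Of 5 storage genes 3 were higher and 1 lower in epithelial cells than in fibroblasts, and of 10 other fatty acid synthesis genes 4 were higher and 2 lower, with a median log2 difference of 0.06, as for all genes tested. Dgat2, which makes triglyceride, stood at 22.9, 16.7 and 24.1 CPM in epithelial cells against 2.56, 2.26 and 7.09 in fibroblasts, a log2 difference of 2.62 ± 0.30 (SE, edgeR adjusted p = 1.61e-05). Me1, which supplies NADPH, was higher by 1.64, and the acyl-CoA synthetases Acsl3 and Acsl5 by 1.22 and 1.11, whereas Acsl4 was lower, at -1.19, and Fads1, a desaturase of polyunsaturated fatty acids, at -1.04. Plin2 and Pnpla2, a lipid droplet coat and a triglyceride lipase, were higher by 0.85 and 1.36, and Soat1, which esterifies cholesterol, was lower, at -1.14. Stard4, a sterol carrier and SREBP2 target, was higher in epithelial cells than in fibroblasts by 1.72 ± 0.29 (SE, edgeR adjusted p = 0.00039), than in mural cells by 2.48 ± 0.42 and than in mesothelial cells by 1.32 ± 0.36, and was not called against endothelial cells, which stood at 70.7 and 34.0 CPM in tumours 1 and 3. Among the other regulators, Nr1h3, which encodes a liver X receptor, was higher in mural cells than in fibroblasts by 2.51 ± 0.39 (SE, edgeR adjusted p = 0.000791), at 42.8, 35.9 and 6.34 CPM against 8.90, 2.72 and 2.06, and Insig2 by 1.13 ± 0.23.

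The authors' deposited table gives a log2 fold change of each gene in each of 19 clusters, pooled over tumours. In the authors' deposited table all 17 sterol genes were above 0 in cluster 14, with a median of 1.08, and the proliferation gene Mki67 stood at 3.55 there; 2 of the 17 had an adjusted p under 0.05. Cluster 10, with Mki67 at 2.63 in the authors' deposited table, had a sterol median of 0.09. The epithelial gene Epcam stood at -0.03 in cluster 14 and -4.63 in cluster 10 of the authors' deposited table. Clusters 1 and 5, with Epcam at 1.41 and 1.52 in the authors' deposited table, had sterol medians of -0.05 and 0.23. Clusters 3, 7, 8 and 17 had Epcam at 0.77, 0.63, 0.81 and 0.78 in the authors' deposited table. Their sterol medians were 0.48, -0.02, 0.21 and -0.18. Cluster 2, with Dcn at 2.67 in the authors' deposited table, had a median of -1.57, and 7 of the 17 genes were lower there at that threshold. Fdps was at -2.75 and Sqle at -2.86 in cluster 2 of the authors' deposited table, and Cyp51, at 0.62, was the 1 sterol gene above 0 there. In the endothelial cluster 18, with Pecam1 at 8.80, the authors' deposited table gives Abca1 at 2.52. Scd1 was at 1.84 in cluster 9, which had Upk3b at 8.404, and at 2.43 in cluster 13, which had Adipoq at 8.77, in the authors' deposited table. Cluster 13 also had the acinar gene Cpa1 at 6.85 and the insulin gene Ins1 at 11.3 in the authors' deposited table. Its Scd1 value therefore cannot be tied to 1 cell type.

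**Figure D5:**
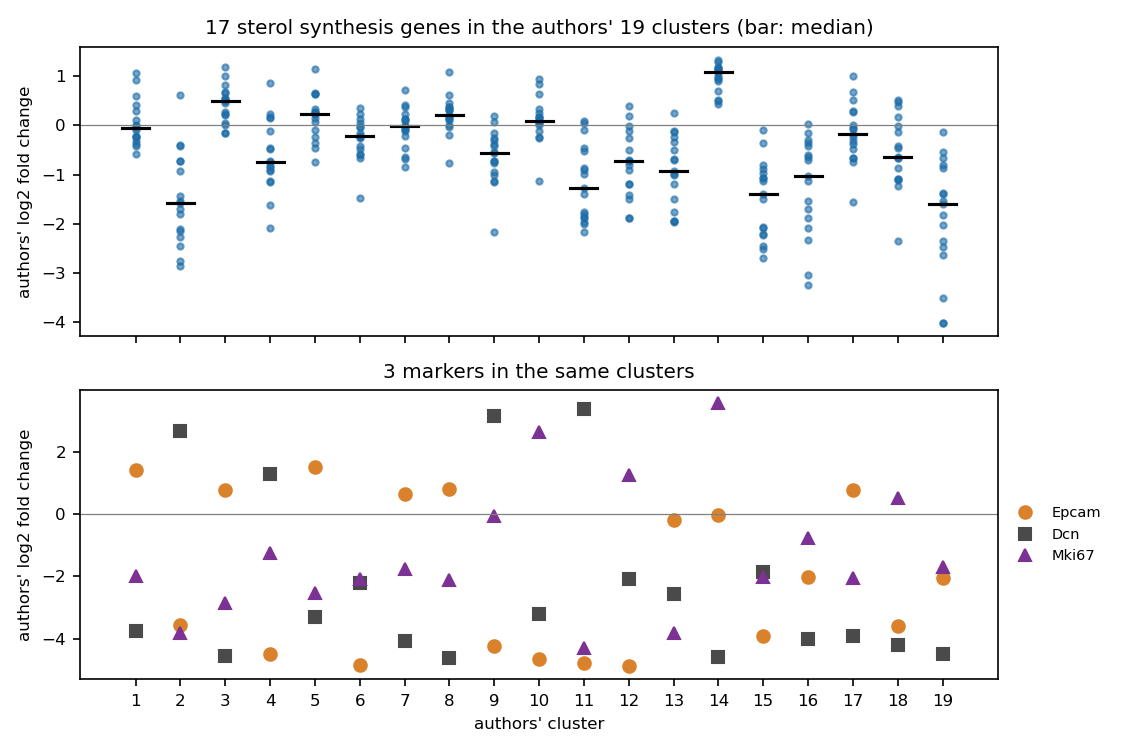
Log2 fold changes from the authors' deposited table (y axes) in 19 clusters (x axis): the 17 sterol synthesis genes with their median as a bar (top), and the markers Epcam, Dcn and Mki67 (bottom). Cluster 14, with the highest Mki67 value, has the highest sterol median, 1.08, and cluster 10, with Mki67 at 2.63 and Epcam at -4.63, has 0.09.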

How the data were processed

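Single cells of 3 tumours of 1 strain were profiled; per the labels' protocols the libraries were 10x 3' v2. The authors deposited UMI counts, whole numbers that are not normalized, in 1 matrix for all tumours, and the barcode suffix gives the tumour per the labels. Per the submitters' processing notes the tools were Cell Ranger 2.1.1 and Seurat 3.0; what each tool did, which build the reads were aligned to and which gene models were counted is not stated in them. A second table deposited by the authors holds log2 fold changes and adjusted p-values per cluster, per the file headers, which name no test; values were copied from it as they stand.

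Tumours 1, 2 and 3 had 60801677, 67262634 and 53162622 UMIs. Barcodes with under 500 genes or over 20% mitochondrial counts were left out, then 74, 94 and 144 cells marked by Scrublet (scanpy 1.11.5), leaving 5728, 5978 and 7284. Counts were summed per class and tumour; sums of under 20 cells were left out. edgeR 4.0.16 (TMM, filterByExpr, quasi-likelihood test, R 4.3.3) was fitted with class and tumour as terms, without the 10 class markers, and p-values were adjusted by Benjamini-Hochberg over all genes tested. Sums of 1 tumour come from the same tumour, so the tumour was a block. In classes other than endothelial, deviations from class means correlated at 0.24 to 0.66 within a tumour (18 pairs of sums). Between tumours the values ran from -0.53 to 0.09. The deviations of a class cancel over its tumours, so positive values within a tumour force lower ones between tumours, and this contrast is partly built in. The fixed mesothelial rule, which admitted no second pair, left 6, 0 and 5 cells, so the wider class was added after the data had been seen; its comparisons come from a fit with these sums and the others from a fit without them. The fit and test were checked on simulated sums with known changes in the epithelial sums. Single cells, their classes and their summing were not simulated. Against fibroblasts, 31 of 99 genes with a log2 change of 1 were recovered, and 86 of 99 with a change of 2. The same run called 15 unchanged genes out of 14399 genes. In the simulation the classes otherwise shared the same means and few genes changed, whereas 5915 of 14807 genes were called in the data. The adjusted threshold was thus stricter there, and the recovered shares do not carry over to the comparisons reported here. A gene that was not called is still not shown to be equal between classes. The genes, lists and comparisons were chosen with earlier results of these data known. Named with full statistics are called genes with the same sign in every tumour, at most the 8 largest differences per comparison; of the other genes at most 5 per list. Alternatives were DESeq2 1.42.0 and its size factors, no filter, no block, each tumour left out, only the 2 classes compared, Scrublet-marked cells or cells of over 1 class kept, thinning to 3000 UMIs, at least 2 UMIs of both markers, a 10% mitochondrial filter and, added later, a stricter fibroblast class. Poisson intervals cover counting error only, while each SE comes from the fit and includes the spread between sums. In these sums, fewer UMIs per cell and fewer cells of a subtype cannot be told apart. Some items are not reported here.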

Additional observations from a re-analysis of the deposited data

Results flagged for a closer look

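Cells that met none of the 5 marker pairs entered no comparison. Among the 1424 such cells of tumour 3, 37 had a UMI of both adipocyte genes Adipoq and Plin1, against 1 of 809 in tumour 1 and 1 of 2194 in tumour 2. Scd1 stood at 446 CPM in those 37 cells (81 of 181469 UMIs, exact 95% Poisson interval 354 to 555 CPM, counting error only), against 26.5 CPM in all cells of tumour 3 with no pair and at most 56.9 in the named classes. Fasn stood at 99.2 CPM (interval 58.8 to 157) and Acaca at 82.7 (interval 46.3 to 136), while Acly was at 44.1. The lone cell of tumour 1 held 10 Scd1 UMIs among 4274 and that of tumour 2 held 0 among 6636. This signal lay in data that the comparisons do not use, and nearly all of its cells came from 1 tumour.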

How the results depend on the processing

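Of the 28 genes, none of the called ones chosen to be named with full statistics changed direction under any alternative run. They had been chosen for the same sign in every tumour, so this outcome was largely fixed by the choice. Their calls were less stable. Without tumour 1, 17 of these named differences were no longer called and 23 were. Without the block, 14 were no longer called and 27 were. The further genes of lipid handling were not part of this check. Genes that were not called could change sign. Abca1 against mural cells went from 0.07 to -0.03 with the DESeq2 size factors and to -0.05 with DESeq2. Without the tumour as a replicate block, the pairing of sums within a tumour is ignored, and the counts fell: against fibroblasts 5 genes were higher and 3651 of all genes were called, against mural cells 3467 of all, against mesothelial cells 7 higher, against endothelial cells 4 higher and 2154 of all. In mesothelial against fibroblast cells that fit called 1 gene lower and 934 of all, and in mural against fibroblast cells 0 higher, 3 lower and 1134 of all. Leaving out 1 tumour in turn gave, for epithelial cells, 10 to 17 higher, 1 to 2 lower and 3921 to 5182 of all genes against fibroblasts; 12 to 15 higher and 3272 to 4416 of all against mural cells; 5 to 12 higher and 2522 to 4103 of all against mesothelial cells; and 1 to 10 higher, 0 to 1 lower and 835 to 3522 of all against endothelial cells. It gave 0 to 1 higher, 1 to 1 lower and 721 to 1469 of all for mesothelial against fibroblast cells, and 0 to 1 higher, 0 to 4 lower and 1048 to 1960 of all for mural against fibroblast cells; fewer sums were fitted in each.

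Genes called lower in epithelial cells than in fibroblasts, 1 in the reported fit, numbered 2 with DESeq2, its size factors, no low-count filter, Scrublet-marked cells kept, cells of over 1 class kept, the 10% mitochondrial filter or the added fibroblast class, 3 with at least 2 UMIs of both markers, 5 with thinning (Cyp51, Abca1, Acly, Acaca and Scd1), and 3 with only the 2 classes fitted, where 10 were higher. Against mural cells 1 gene was lower with only the 2 classes, with cells of over 1 class kept or with thinning. Against mesothelial cells 2 were lower with the size factors, no filter, only the 2 classes, cells of over 1 class kept, at least 2 UMIs or the added fibroblast class, and thinning called 2975 of all genes. In mural against fibroblast cells 3 were lower with cells of over 1 class kept. The cause of these changes was not tested. Depth limits the endothelial, mural and mesothelial values, which rest on 1 to 10 UMIs for Lss, Tm7sf2, Sc5d and Dhcr7 in some of these classes.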

Other observations

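Sterol synthesis genes were also higher in cells with a UMI of the proliferation genes Mki67 or Top2a. In epithelial cells of tumours 1, 2 and 3 the 17 genes summed to 947, 788 and 824 CPM in 204, 165 and 131 such cells, against 646, 524 and 556 CPM in the other epithelial cells, which is 1.47, 1.504 and 1.48 times as much. The fatty acid sum was 1.05, 1.32 and 1.08 times as high. Abca1 was lower in the cells with such a UMI, at 6.26, 5.94 and 11.3 CPM against 17.3, 14.6 and 14.5. Cells with the proliferation UMI were deeper, with medians of 17311, 13717 and 10572 UMIs against 10014, 8656 and 7625. When the UMI was sought after thinning to 3000 UMIs per cell, the sterol ratios were 1.59, 1.45 and 1.53. In fibroblasts the unthinned sterol ratios were 1.36, 1.28 and 1.41, the last on 32 cells. This split was chosen after the data had been seen, was not tested, and its levels are a description.

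Within the fibroblast class, cells with a UMI of Lum, Dpt or Pdgfra had lower sterol sums than the remaining cells in each tumour, at 389, 399 and 222 CPM against 545, 438 and 262. The difference was not tested.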
